A study of Mus musculus with 6 samples.

Results

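Ccl6, Ccl9, Ccl24 and Pf4 are 4 genes for chemokines, small secreted proteins that direct the movement of leukocytes. They were found by their symbols among the 20394 genes of the table, and all 4 were present. The working name that groups them, macrophage chemokines, was compared with the data below. It described Ccl24 and Pf4, which were highest in macrophage-like cells, and Ccl9 in part. For Ccl6 the answer depended on the measure. Relative to all RNA counted, Ccl6 was highest in mature neutrophil-like cells among the classes with at least 50 cells. Counted per cell, it was higher in some macrophage-like classes and in monocyte-like cells, and lower in resident and Fxyd2 macrophage-like cells.

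The cells came from wild type male C57BL/6 mice, bought at 8 weeks of age, with antigen-induced arthritis (AIA). The mice had received 10 μg methylated BSA (mBSA) under the skin in complete Freund's adjuvant and, on day 21, 100 μg mBSA into the knee. From then they were injected intraperitoneally with PBS as the vehicle (2 samples) or with 300 μg of the peptide PEPITEM (4 samples). Cells of digested joints that carried CD45, the protein that marks leukocytes, were collected 3 days after the challenge and sequenced cell by cell. The paper calls them synovial and states that isolated joints were digested. Which tissue of the joint each class of cells came from was not tested.

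Treatment could not be compared. The 32953 cells carry barcodes numbered 1 to 6, and no source used here ties a number to a sample label. The numbers are used as 6 libraries of unknown treatment, for which the lowest, the median and the highest are given, with no test across them. The libraries held 2919 to 9345 cells and 47273569 to 123367661 unique molecular identifiers (UMIs, tags for single RNA molecules), and 138 barcode sequences occurred in more than 1 library. Cells were placed in 19 classes by counting how many marker genes of a cell type had at least 1 UMI, and none of the 4 chemokines was a marker. Outside these classes were 2329 cells with macrophage and neutrophil markers, 2930 with other mixed markers and 1633 that passed no gate. Levels are UMIs of the gene per 1000000 UMIs of the class (CPM). UMIs count the ends of transcripts, and levels were not divided by gene length, so they are compared between classes and not between genes.

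CCL6 and CCL9 are CC chemokines of mice and rats that bind CCR1, a receptor on neutrophils, monocytes and macrophages. CCL24, also called eotaxin-2, binds CCR3 and attracts eosinophils, and in macrophages its gene is known to be induced by IL-4 and IL-13. PF4, or CXCL4, is stored in the granules of platelets and is made by megakaryocytes, the cells that shed platelets, and its gene is also transcribed in some tissue macrophages.

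By GENCODE vM21 on GRCm38, Ccl6 (ENSMUSG00000018927) lies at chr11:83587882-83593087 and Ccl9 (ENSMUSG00000019122) at chr11:83572919-83578636, both on the minus strand, with 4 exons each in their longest transcripts. They are neighbours, with 9245 bases between them. A noncoding gene on the other strand, E230016K23Rik, overlaps Ccl6. Ccl24 (ENSMUSG00000004814) lies at chr5:135569937-135573049 on the minus strand, and Pf4 (ENSMUSG00000029373) at chr5:90772435-90773383 on the plus strand, 2371 bases from the platelet gene Ppbp. Both have 3 exons. The transcripts of Ccl6 and Ccl9 shared 0 runs of 31 bases. Ccl9 shared the most with transcripts of other genes, at 3.75% of its runs, and Pf4 shared 0.

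The bases just before the start sites are shown because the neighbours Ccl6 and Ccl9 had different highest classes in CPM. Pf4 is shown because it was found in macrophage-like and megakaryocyte-type cells. RefSeq's table of promoters (GRCm38.p6) held 3 of the 4 genes, all but Ccl24. The windows end at the base before the start site and are written 5′ to 3′ on the strand of the gene, at chr11:83593088-83593237 (minus) for Ccl6, chr11:83578637-83578786 (minus) for Ccl9 and chr5:90772285-90772434 (plus) for Pf4. Capitals mark a run of 14 bases that stands at 2 places in Ccl6, the overlapping matches to TATAAA in Ccl9 and a match to AGGAAG in Pf4.
Ccl6: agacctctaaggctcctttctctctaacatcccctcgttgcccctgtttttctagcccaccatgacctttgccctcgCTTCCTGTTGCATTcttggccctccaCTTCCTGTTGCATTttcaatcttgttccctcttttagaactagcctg
Ccl9: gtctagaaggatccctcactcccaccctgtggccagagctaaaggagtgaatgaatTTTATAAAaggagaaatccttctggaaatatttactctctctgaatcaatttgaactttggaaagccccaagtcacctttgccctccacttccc
Pf4: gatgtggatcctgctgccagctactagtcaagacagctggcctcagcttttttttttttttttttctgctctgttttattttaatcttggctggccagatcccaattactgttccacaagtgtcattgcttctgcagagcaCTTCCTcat

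The copies of the repeat in Ccl6 began 73 and 47 bases before the start site. A run of at least 14 bases that stands at 2 places without overlap was present in 2.00% of the 32851 windows of 150 bases. Each copy opened with CTTCCT, the reverse complement of AGGAAG, the core that ETS family factors bind. On either strand, AGGAAG was found in 19.7% of all windows, with 2 matches in Ccl6, 1 in Pf4 and 0 in Ccl9. TATAAA, the core of the TATA box, was in 7.57% of windows on either strand, and in neither Ccl6 nor Pf4. Ccl9 had 2 overlapping matches, 1 on each strand of the same stretch, beginning 94 and 92 bases before the start site. C/EBP-type TTNNGCAA, GATA-type AGATAA and STAT6-type motifs (TTC, any 4 bases, GAA) were in 5.46%, 5.65% and 3.17% of windows and matched none of the 3. A match to letters is a description and not a binding site.

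Over all cells, Ccl6 had the second and Pf4 the third highest number of UMIs among the 37 chemokine ligand genes in the table, from a list of 38. Ccl6 had 206204 UMIs and was detected in 52.4% of the cells. Pf4 had 167167 UMIs, in 14.7% of the cells. Ccl9 ranked 6th with 100976 UMIs in 35.1% of the cells, and Ccl24 ranked 16th with 14107 UMIs in 6.35%. Of the 37 ligands, 30 reached 5 CPM in at least 1 class of 50 or more cells, and 11 of these were highest in a macrophage-like class. The share of all genes highest in such a class was not counted, so no preference of chemokines for macrophage-like cells is read from this.

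Across the libraries, the level over all cells ranged most for Ccl24, from 7.85 to 62.8 CPM with a median of 37.9. Pf4 ranged from 178 to 642 CPM (median 417), Ccl6 from 312 to 706 CPM (median 452) and Ccl9 from 153 to 338 CPM (median 223). The share of resident macrophage-like cells among all cells moved as well, from 0.568% to 10.1% over libraries. Among macrophage-like cells it moved from 10.4% in library 2 to 56.9% in library 5. Library 5 had 23.5 CPM of Ccl24 and 264 CPM of Pf4 over all cells, both below the medians. Of all its 9345 cells, 358 were resident macrophage-like. Library 4, with the highest share among all cells (405 of 3996), had 52.4 CPM of Ccl24 and 642 CPM of Pf4. Library 2, with the lowest (33 of 5809), had 7.85 and 179 CPM. The part of either share in the spread of Ccl24 and Pf4 was not tested.

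**Figure D1:**
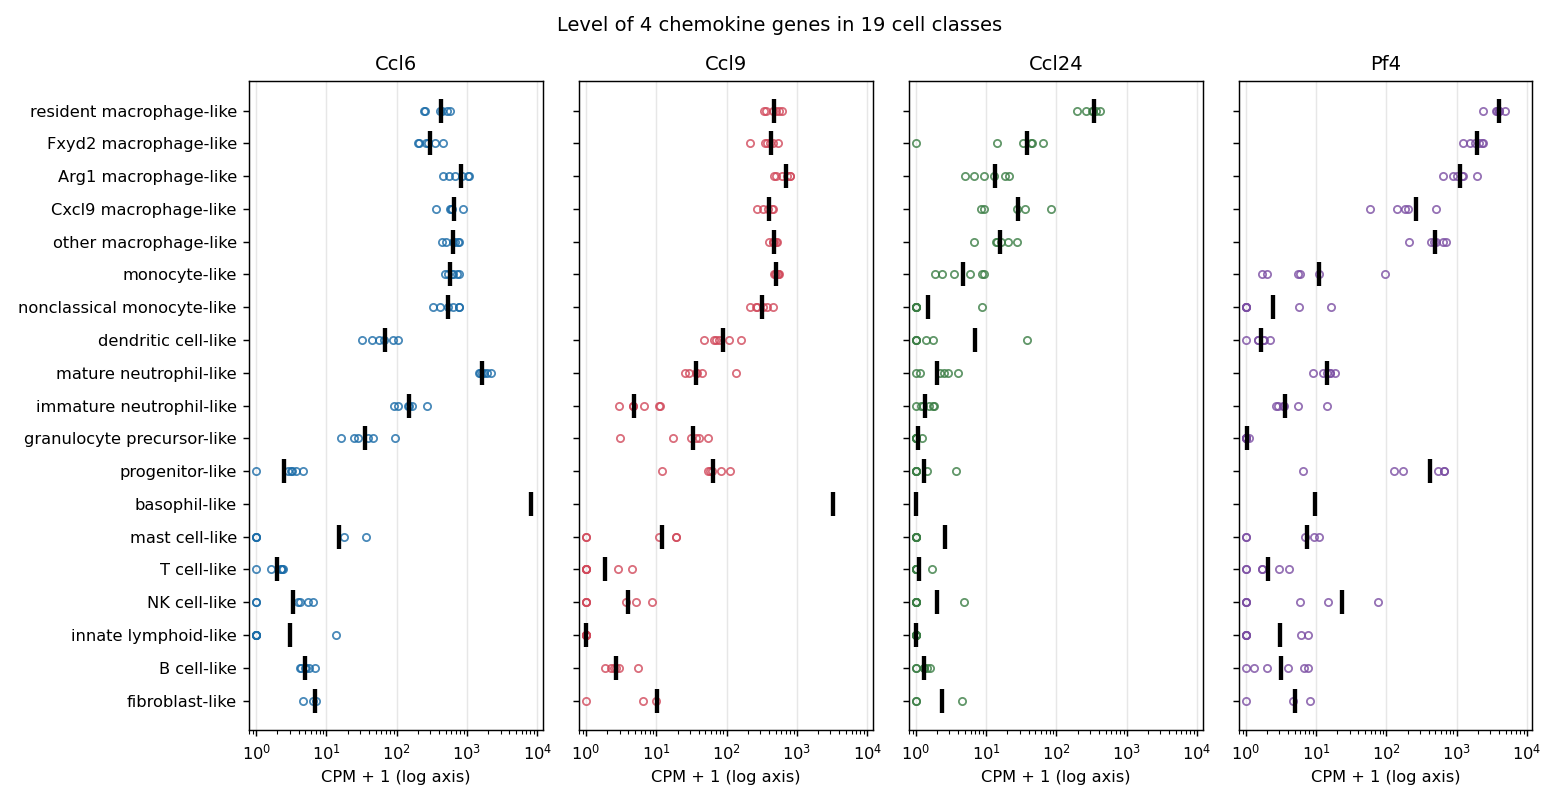
Level of Ccl6, Ccl9, Ccl24 and Pf4 (CPM plus 1, log axis) in 19 cell classes. Black bars are all cells of a class pooled and open circles are single libraries with at least 10 cells of the class. Ccl6 is highest in the 20 basophil-like cells and in mature neutrophil-like cells (1625 CPM), Ccl9 is spread over macrophage-like and monocyte-like classes, and Ccl24 (337 CPM) and Pf4 (3974 CPM) peak in resident macrophage-like cells.

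Among classes of at least 50 cells, Ccl6 stood highest in mature neutrophil-like cells, chosen by genes such as Cxcr2, the receptor for neutrophil chemokines, and Csf3r, the G-CSF receptor. In these 4798 cells its level was 1484, 1710.0 and 2203 CPM in the lowest, median and highest library, and 1625 CPM pooled. It was detected in 91.0% of them (95% Wilson interval 90.2 to 91.8), at a median depth of 4840 UMIs per cell. All libraries lay above the highest library of any other class with at least 10 cells there. In T cell-like cells, used as a class that should lack the gene, Ccl6 was detected in 0.972% of cells at a median depth of 9036 UMIs. Intervals here and below cover counting error only.

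Ccl6 then followed in Arg1 macrophage-like (831 CPM), Cxcl9 macrophage-like (652 CPM), other macrophage-like (628 CPM), monocyte-like (576 CPM), nonclassical monocyte-like (543 CPM), resident macrophage-like (431 CPM) and Fxyd2 macrophage-like cells (294 CPM). From the Arg1 class down, each of these classes overlapped the next in its range over libraries. Dendritic cell-like cells had 67.1 CPM and granulocyte precursor-like cells 34.4 CPM. Neutrophil-like cells, 31.3% of all cells, held 27.1% of all Ccl6 UMIs, and macrophage-like classes, 11.1% of all cells, held 16.1%.

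Within the neutrophil-like cells, Ccl6 differed by stage. Immature neutrophil-like cells, chosen by granule genes such as Ngp, Ltf and Camp, had 89.2, 146 and 271 CPM in the lowest, median and highest library. Every library of mature cells lay above every library of immature cells, and the pooled level was 11.1 times higher. By the same rule (at least 2-fold, ranges apart), 14.4% of 7690 genes were higher in mature cells, and Ccl6 and Ccl9 were both among them. Ccl9 was 9.10 times higher, with 35.1 against 3.86 CPM, but only 6.88% of mature and 3.23% of immature cells contained it. With whole Leiden clusters in place of gates the Ccl9 fold was 1.63 and no longer passed the rule.

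The level differed with how many of 6 immature markers a cell contained. With 0 markers detected, Ccl6 stood at 1551 CPM (libraries 1355 to 2323), below the 1824 CPM with 1 marker (libraries 1690 to 2611), and their library ranges overlapped. With 2 markers it stood at 1658 CPM, with 3 at 1201 CPM, with 4 at 287 CPM and with all 6 at 83.2 CPM (libraries 49.2 to 174). The largest step fell between 3 and 4 markers, which is where the gate divides mature from immature cells. Cells with up to 3 immature markers were taken only if they had at least 4 of 6 mature markers. From 4 immature markers on, no mature marker was required, so this step also mixes 2 ways of choosing cells. Median depth moved the other way, from 4526 UMIs per cell with 1 marker to 21894 with 6. After cells were thinned to 3000 UMIs, the share with Ccl6 was 88.7% with 0 markers, 92.8% with 1 and 13.5% with 6. Pooled Ccl9 was lower at each step, from 72.8 CPM with 0 markers to 1.69 CPM with 6. With 0 markers its libraries ranged widely, from 11.9 to 499 CPM, and 7.88% of the cells contained it. With 6 markers the libraries ranged from 0.961 to 5.95 CPM. Ccr1, the receptor gene, was also higher in mature cells, with 821 CPM against 217 CPM, and was 153 CPM in resident macrophage-like cells and 1.58 CPM in T cell-like cells.

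**Figure D2:**
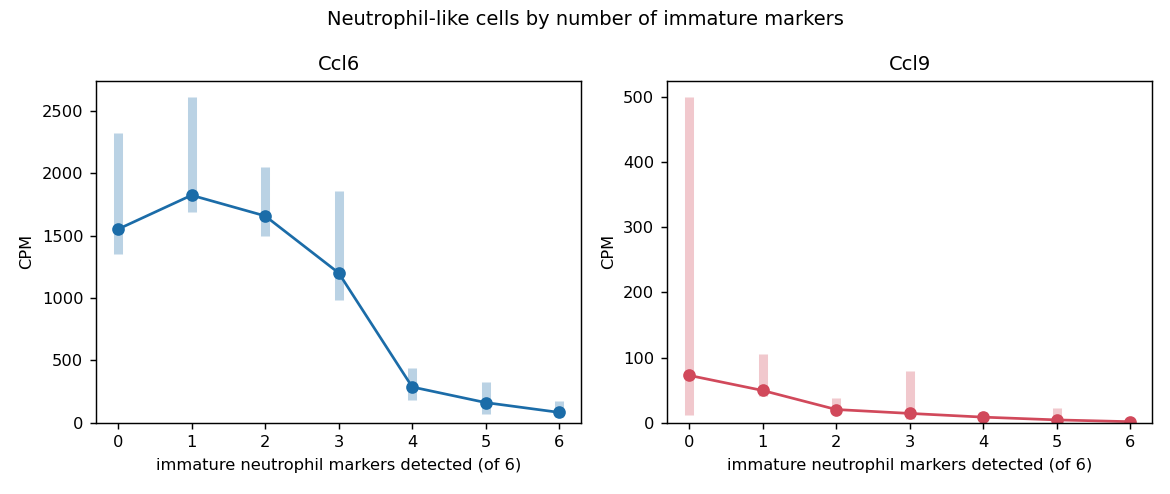
Ccl6 (left) and Ccl9 (right) in CPM in neutrophil-like cells, by the number of immature neutrophil markers detected out of 6. Points are pooled cells and bars span the lowest to the highest library. Ccl6 is 1551 CPM with 0 markers, 1824 CPM with 1 and 83.2 CPM with 6, and Ccl9 is lower at each step, from 72.8 CPM with 0 markers to 1.69 CPM with 6.

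In CPM, the neighbouring gene Ccl9 stood highest in another class. Arg1 macrophage-like cells, named for the arginine-degrading enzyme arginase 1, had its highest level among classes of at least 50 cells, with 469, 663 and 791 CPM in the lowest, median and highest library and 693 CPM pooled. It was detected in 95.4% of these 540 cells (95% interval 93.3 to 96.8), at a median depth of 18044.5 UMIs, and in 0.864% of T cell-like cells. Monocyte-like cells followed with 507 CPM (libraries 472 to 555) and resident macrophage-like cells with 473 CPM (libraries 340 to 604). The first 7 classes, down to nonclassical monocyte-like cells at 317 CPM, formed an unbroken series in which each overlapped the next over libraries. Dendritic cell-like cells lay apart below them at 89.2 CPM.

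Mature neutrophil-like cells had a Ccl9 level of 24.6, 36.6 and 135 CPM in the lowest, median and highest library, and only 6.88% of them contained a Ccl9 UMI. Against monocyte-like cells, Ccl6 was 2.82 times higher in mature neutrophil-like cells and Ccl9 was 0.0693 times the monocyte level, both with ranges apart. With 1 marker more required in every gate the Ccl6 fold was 1.79 and no longer passed the rule. In this comparison 9.80% of 9388 genes were higher and 54.9% were lower in mature neutrophil-like cells, with a median ratio over all tested genes of 0.416, so Ccl9 shared its direction with most genes and Ccl6 did not.

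The number of Ccl9 UMIs per Ccl6 UMI compares classes and not the genes. It was 0.0216 in mature neutrophil-like cells (libraries 0.0163 to 0.0611) and 0.0264 in immature ones. The ratio was 0.879 in monocyte-like cells (libraries 0.667 to 1.00), 0.834 in Arg1 macrophage-like cells, 1.10 in resident macrophage-like cells and 1.44 in Fxyd2 macrophage-like cells. Progenitor-like cells, chosen by stem cell genes such as Meis1 and Mecom, had the reverse of neutrophils, with 432 Ccl9 UMIs and 10 Ccl6 UMIs in 341 cells. The ranges of the neutrophil-like classes did not overlap those of the macrophage-like and monocyte-like classes.

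**Figure D3:**
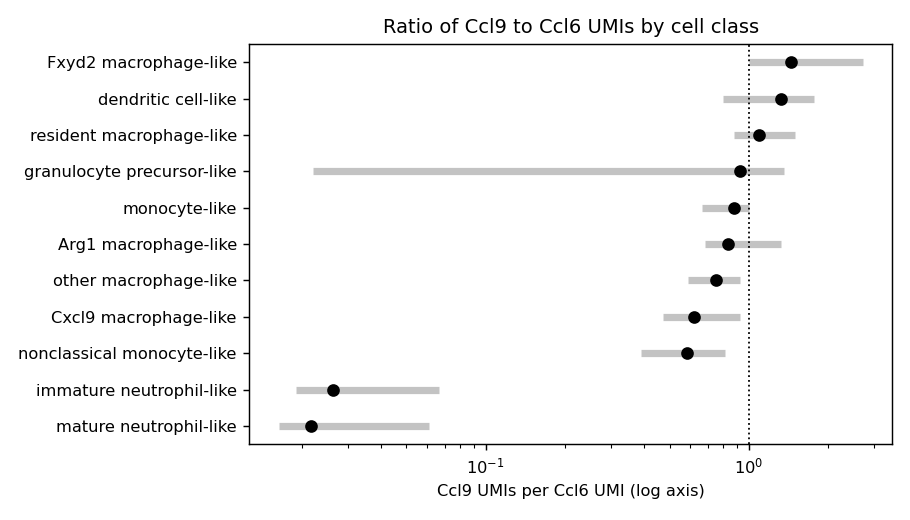
Ccl9 UMIs per Ccl6 UMI (log axis) in 11 classes with at least 5 usable libraries. Points are pooled cells, bars span the lowest to the highest library and the dotted line marks equal counts. Both neutrophil-like classes lie near 0.02, and monocyte-like and macrophage-like classes lie between 0.583 and 1.44. The wide bar of granulocyte precursor-like cells reaches down to 0.022 in 1 library.

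Within a class, cells with one of the pair more often contained the other. Among resident macrophage-like cells thinned to 3000 UMIs, Ccl6 was found in 56.1% of cells with Ccl9 and 26.4% of cells without, higher with Ccl9 in 6 of 6 libraries. Among monocyte-like cells the shares were 72.7% and 56.4%, again in 6 of 6 libraries. In mature neutrophil-like cells the order was the other way, with 82.7% and 88.8%, and Ccl6 was more frequent with Ccl9 in only 2 of 6 libraries. Pf4 was found in 6.12% of mature neutrophil-like cells with Ccl9 and 1.39% without, higher with Ccl9 in 6 of 6 libraries. The part of RNA from other cell types in the Ccl9 of this class was not tested.

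The highest levels of both genes were in 20 basophil-like cells, chosen by genes such as the basophil protease Mcpt8. Ccl6 reached 8187 CPM (95% Poisson interval 7674 to 8725) and was in 19 of the 20 cells. Ccl9 reached 3225 CPM (2906 to 3569) and was in all 20. With 1 to 6 cells per library, Ccl6 ranged from 6024 to 12422 CPM and Ccl9 from 2211 to 4488 CPM over the 6 libraries. No Ccl24 UMI was found, which with 3 UMIs as the limit of a count of 0 allows up to 25.9 CPM. The cell cluster that holds these cells, 52 cells in all, had 3914 CPM of Ccl6 and 2099 CPM of Ccl9. When any of the 75 cells that pass the basophil gate were taken, also those with markers of another cell family, the levels were 1599 and 875 CPM.

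Ccl24 stood highest in resident macrophage-like cells. These cells, chosen by genes such as Lyve1 and the hemoglobin scavenger receptor Cd163, had a Ccl24 level of 195, 322 and 415 CPM in the lowest, median and highest library and 337 CPM pooled, in 62.5% of 1450 cells (95% interval 60.0 to 64.9) at a median depth of 12142 UMIs. After thinning to 3000 UMIs the share was 38.1%. The lowest of these libraries was library 2, with 33 such cells. The next class, Fxyd2 macrophage-like cells, had 37.3 CPM with 0 to 63.4 over libraries, which did not overlap. Arg1 macrophage-like cells had 12.4 CPM, monocyte-like cells 3.64 CPM and T cell-like cells 0.105 CPM, with a UMI in 0.108% of T cell-like cells.

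The pooled level of Ccl24 in resident macrophage-like cells was 27.2 times that of Arg1 macrophage-like cells, 9.01 times that of Fxyd2 macrophage-like cells and 92.4 times that of monocyte-like cells, each with ranges apart. Genes higher by the same rule made up 9.76%, 1.36% and 16.9% of those tested in the 3 comparisons. Ccl24 thus belonged to the 133 genes of 9763 higher in resident cells than in the Fxyd2 class. With one marker more required in every gate, the fold over the Fxyd2 class was 1.85 and no longer passed the rule. That fold used only libraries with at least 10 cells of both classes. Over all libraries the stricter gate gave 361 CPM in resident cells and 170 CPM in the 52 cells left in the Fxyd2 class. A cell that fails the stricter resident gate but passes the Fxyd2 gate falls in the Fxyd2 class.

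Ccl24 was uneven among resident macrophage-like cells. The median cell had 106 CPM, the upper quartile 433 CPM, and the 145 cells with the most held 56.8% of the UMIs. For Pf4 the 145 cells with the most held 27.1%. After thinning to 3000 UMIs, cells with Mgl2, a lectin of alternatively activated macrophages, had 816 CPM of Ccl24 against 294 CPM in cells without. The corresponding levels were 725 and 326 CPM for Retnla, a secreted protein induced by IL-4, and 724 and 288 CPM for the lectin Clec10a. In each case all usable libraries, 4 or 5, showed the higher level with the second gene. Ccl6, Ccl9 and Pf4 were also higher with each of these genes in all usable libraries, so this was not particular to Ccl24. Other genes of the list of IL-4 and IL-13 responsive genes did not all split Ccl24 this way. The levels with and without Il4ra, the IL-4 receptor, were 439 and 343 CPM, higher in 4 of 5 libraries, and those for Tgm2, a transglutaminase, were 328 and 378 CPM, higher in 2 of 6. The 31 cells with Chil3, a chitinase-like protein, had 172 CPM against 374 CPM, with 1 usable library. Mrc1, also a marker of the resident gate, did split Ccl24, with 410 CPM with it and 138 CPM without, higher in 6 of 6 libraries. By Ccr2, a monocyte marker outside the list, Ccl6 had 828 against 372 CPM and Ccl9 had 624 against 425 CPM, each higher in 5 of 5. Ccl24 was higher with Ccr2 in 3 of 5 libraries and Pf4 in 0 of 5.

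The order was the other way for Trem2, a lipid receptor, with 275 CPM of Ccl24 in cells with it and 503 CPM in cells without, lower in 5 of 5 libraries, and for Aqp1, a water channel, with 285 and 559 CPM, lower in 5 of 6. Ccl6 followed the same division, with 976 against 357 CPM by Retnla and 350 against 530 CPM by Trem2. So did Ccl9, with 684 against 419 CPM by Retnla and 389 against 530 CPM by Trem2. By Trem2, Pf4 had 3984 against 4884 CPM. By Aqp1 the members parted. Ccl6 had 355 against 583 CPM, higher with Aqp1 in 0 of 6 libraries, and Ccl9 had 437 against 473 CPM, higher in 3 of 6. Pf4 went the other way, with 4882 against 3186 CPM, higher in 5 of 6. Of the 10 genes listed as IL-4 and IL-13 responsive, resident cells were higher than monocyte-like cells, by 2-fold with ranges apart, for Retnla and Mrc1, a mannose receptor that is itself a resident marker, and lower for Chil3, a monocyte marker. The other 7 did not pass. Over all 10034 genes tested in this comparison, 16.9% were higher and 10.6% were lower by the rule, so the count of 2 higher among 10 is near the background.

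Ccl24's receptor gene was scarce. Ccr3 had 41 UMIs in all resident macrophage-like cells (2.13 CPM), 3.68 CPM in T cell-like cells and 69.2 CPM from 8 UMIs in the 20 basophil-like cells. No gate was set for eosinophils.

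Pf4 was also highest in resident macrophage-like cells. They had 2397, 3850.0 and 4799 CPM in the lowest, median and highest library and 3974 CPM pooled, with a UMI in 98.4% of cells (95% interval 97.6 to 98.9). The lowest library was again library 2. Fxyd2 macrophage-like cells had 1977 CPM (libraries 1246 to 2404) and Arg1 macrophage-like cells 1100.0 CPM (libraries 639 to 1961). Other macrophage-like cells had 498 CPM and Cxcl9 macrophage-like cells 265 CPM. Monocyte-like cells had 10.2 CPM and T cell-like cells 1.05 CPM, with a UMI in 0.972% of T cell-like cells.

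Resident cells exceeded Arg1 macrophage-like cells 3.61-fold and monocyte-like cells 391-fold in Pf4, with ranges apart, and Arg1 macrophage-like cells exceeded monocyte-like cells 108-fold. In the last comparison 6.57% of 9476 genes were higher by the rule. Against the Fxyd2 class Pf4 was 2.01 times higher, in 6 of 6 libraries, but the ranges overlapped. The folds over monocyte-like cells rest on few UMIs, and 364 of the 525 Pf4 UMIs of that class came from library 3. Without library 3 the folds were 1191 for resident and 341 for Arg1 macrophage-like cells. A Pf4 entry of 0 was stored for 148 monocyte-like cells, and 54 had a Pf4 UMI. In resident macrophage-like cells the numbers were 4 and 1427. Stored entries of 0 are read here as counts lowered by the authors' removal of free RNA, which no source used here states. The effect of this removal on the folds was not tested.

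Pf4 also varied among resident macrophage-like cells. After thinning, cells with Sparc, a matricellular protein, had 1584 CPM of Pf4 against 5120 CPM in cells without, lower in 6 of 6 libraries. Cells with Vsig4, a complement receptor, had 2854 against 4984 CPM, lower in 6 of 6 libraries. Ccl24 had the same direction in both splits, with 232 against 408 CPM by Sparc and 265 against 413 CPM by Vsig4, each lower in 5 of 6 libraries. Cells with Fxyd2, a subunit of the sodium pump, had 4878 against 2722 CPM of Pf4, higher in 6 of 6 libraries, while Ccl24 had 353 against 421 CPM, higher in 2 of 6. By Retnla, Pf4 had 5037 against 4275 CPM, higher in 4 of 4 libraries.

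**Figure D4:**
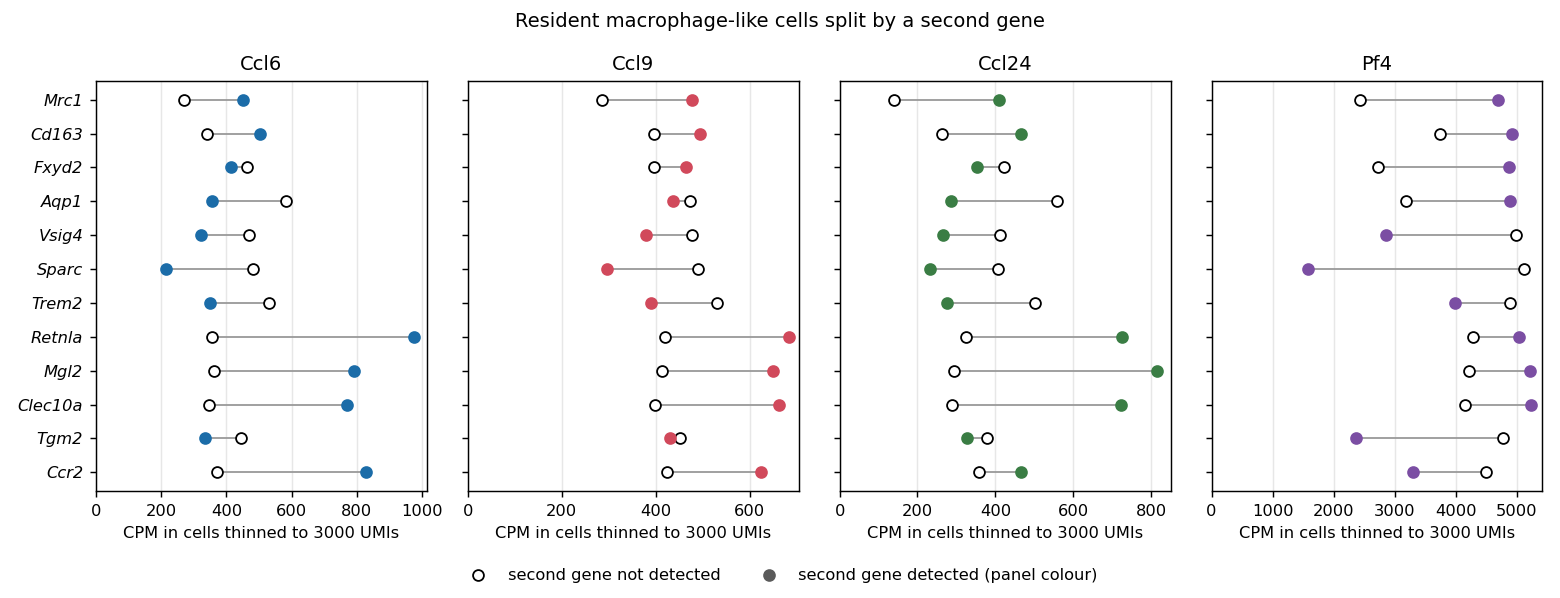
Level of each chemokine (CPM, linear axis from 0) in resident macrophage-like cells thinned to 3000 UMIs, split by whether a second gene was detected (filled) or not (open). All 4 chemokines are higher in cells with Retnla, Mgl2 or Clec10a, and Pf4 is lower in cells with Sparc (1584 against 5120 CPM). Mrc1 and Cd163 were among the markers that chose these cells.

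Platelet RNA was measured beside Pf4, because platelets store PF4. The 10 platelet and megakaryocyte genes of the list summed to 8.22 CPM in resident macrophage-like cells (158 UMIs, 4 genes at 0), against 3974 CPM of Pf4. None of these cells contained 3 or more of the genes, and the 1313 cells with none of them had 3944 CPM of Pf4. In progenitor-like cells the list summed to 173 CPM and Pf4 to 410.4 CPM, with 5.42 to 660 CPM over libraries. Here 56 cells with at least 3 platelet genes held 2683 of the 2802 Pf4 UMIs.

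The 75 progenitor-like cells with Pf4 and the 266 without differed in megakaryocyte genes. Itga2b, the platelet integrin, had 251 against 47.4 CPM, Gp1bb, a subunit of the receptor for von Willebrand factor, 72.0 against 2.83 CPM, and Treml1 48.5 against 1.70 CPM. Macrophage genes were near absent from both groups. C1qa, Adgre1 and Lyve1 had 0 UMIs in cells with Pf4, and 2, 4 and 0 UMIs in cells without. Progenitor-like cells had to fail the macrophage-like gate, of which C1qa and Adgre1 are markers, so their near absence was partly set by the gates. Ccl9 went the other way from the megakaryocyte genes, with 13.1 CPM in cells with Pf4 and 77.7 CPM in cells without. It was found in 9.33% and 34.6% of them.

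Cxcr3, a receptor that PF4 can bind, was a gene of T cell-like cells (58.5 CPM) and NK cell-like cells (29.1 CPM) and stood at 1.98 CPM in resident macrophage-like cells.

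Across the 18 classes with at least 50 cells, the genes whose levels were most like each member were described by Pearson's r of log2(CPM + 1) over 7113 genes. The points share libraries and the gates, so no test is given. For Ccl6 they were Tlr13 (r 0.973), Tlr2, Slc11a1, AF251705 and Ccr1, and Ccl9 ranked 202nd among them. For Ccl9 they were Csf1r (r 0.934), Cd68, Ftl1, Cebpa and Cyfip1. For Ccl24 they were Mtmr10 (r 0.924), Folr2, Mrc1, Cbr2 and C1qb, and for Pf4 Folr2 (r 0.888), Gm21807, Stab1, Cbr2 and C1qa. Folr2, Mrc1, Cbr2, Csf1r, Cd68, C1qa and C1qb were gate markers.

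A further 2329 cells had markers of macrophages and of neutrophils together. They held 41.4% of all Ccl24 UMIs, 31.8% of Pf4, 25.6% of Ccl6 and 21.8% of Ccl9, and their depth was high, with a median of 25028 UMIs against 12142 in resident macrophage-like cells. The 6 mature neutrophil markers summed to 7926 CPM in them, against 149 CPM in resident, 229 CPM in Arg1 and 287 CPM in monocyte-like cells, with none of the 6 markers at 0. These cells were kept out of the classes above, and the part of neutrophil RNA and of doublets in their levels was not tested. With those that pass a resident gate included, resident macrophage-like cells had 317 CPM of Ccl24 and 3013 CPM of Pf4. The 4563 cells with other mixed markers or no gate, 13.8% of all cells, were left out as well. They held 14.7% of Ccl6 UMIs, 19.3% of Ccl9, 5.73% of Ccl24 and 4.14% of Pf4.

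The deposited counts held stored entries of 0, read here as counts that the authors' removal of free RNA lowered to 0. Counts lowered but not to 0 cannot be seen. Among T cell-like cells, 5.51% had a Pf4 entry of 0 and 0.972% had a Pf4 UMI, and for Ccl6 the shares were 4.21% and 0.972%. Among resident macrophage-like cells 0.276% had a Pf4 entry of 0.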

How the data were processed

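The authors digested isolated joints, sorted CD45+ cells and made 3′ libraries with Chromium chemistry. They counted UMIs with Cell Ranger (version 7 in the submitters' notes) on mm10. They also removed free RNA with SoupX and doublets with DoubletFinder, and filtered the cells with Seurat. They deposited 1 table of UMI counts of 20394 genes by 32953 cells, after the removal of free RNA and not scaled for depth. Here counts were summed per class and divided by the class total (CPM), with Python 3.11.15, scipy 1.17.1, scanpy 1.11.5 and matplotlib 3.10.9. A cell needed 2 to 5 markers of 1 cell family with at least 1 UMI and had to fail the gates of every other family. It could still contain some markers of another family. Some gates also required a named marker, such as Ccr2 for monocyte-like cells, Lyve1 or Cd163 for resident and Arg1 for Arg1 macrophage-like cells. Marker genes were listed first, and the minimum numbers were set with the table in view.

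Members and gene lists were chosen with earlier results of these data known, and named genes are the members, their receptors, the lists above and the 5 genes most like each member. Classes were compared over libraries with at least 10 cells in both. A gene was tested from 5 CPM in either class and called at a 2-fold pooled difference with library ranges that did not overlap. This is a rule of size and not a test, since libraries carry no known treatment. The comparison of vehicle and PEPITEM was not run. Shares carry Wilson and levels exact Poisson 95% intervals. Where detection was compared, cells were thinned to 3000 UMIs, and the 1516 cells below that were left out. No doublet caller was run.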

Additional observations from a re-analysis of the deposited data

How the results depend on the processing

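The settings for folds, both gates and mixed cells were added after the data had been seen. The treatment of each library is unknown, so nothing here bears on PEPITEM, and differences between classes describe 6 libraries without a test. No paired analysis was possible because the barcode numbers are not linked to the sample titles, whose numbers are not stated to pair animals. Of 41 fold values under other settings, 38 kept their direction and their call, and all 60 with 1 library left out did so. Leaving out a library cannot make ranges that lie apart overlap. Only the 2-fold limit and the 5 CPM minimum could have changed those 60 calls, so their number says little about the ranges. The exceptions were the Ccl9 fold of mature over immature neutrophil-like cells with Leiden clusters in place of gates (1.63), and, with 1 marker more required, the Ccl6 fold of mature neutrophil-like over monocyte-like cells (1.79) and the Ccl24 fold of resident over Fxyd2 macrophage-like cells (1.85). In the second of these, cells that miss the stricter immature gate fall in the mature class by construction, and with only cells of the same class under both gates the Ccl6 fold was 2.77. The cause of the others was not tested. Leaving out library 3 moved the Pf4 folds over monocyte-like cells most, to 1191 for resident and 341 for Arg1 macrophage-like cells.

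Ccl6 in mature neutrophil-like cells (1625 CPM) was 1502 CPM by clusters, 1029 with the stricter gate, 1662 under both gates, 1710.0 as the median of libraries, 1690.1 as a mean over cells and 1683 without mitochondrial and ribosomal genes in the total. Ccl9 in Arg1 macrophage-like cells (693 CPM) was 719 under both gates, 663 as the median of libraries, 710.3 as a mean over cells, 789 with the smaller total and 519 with mixed macrophage and neutrophil cells included. No cluster took the Arg1 name, so clusters gave no Ccl9 value for that class. By clusters, both genes were highest in the basophil-like cluster of 52 cells, with 3914 CPM of Ccl6 and 2099 CPM of Ccl9. With the stricter gate, Ccl6 in mature neutrophil-like cells stood close above Arg1 macrophage-like cells, with 1029 against 943 CPM. Ccl24 in resident cells (337 CPM) was 328 by clusters, 361 with the stricter gate, 353 under both gates, 322 as the median, 376 as a mean over cells, 379 with the smaller total and 317 with mixed cells. Pf4 (3974 CPM) was 3103, 3843, 3850.0, 4461, 4477 and 3013 CPM by clusters, the stricter gate, the median, the mean over cells, the smaller total and with mixed cells. With 1 library left out, Ccl6 lay between 1579 and 1688, Ccl9 between 659 and 712, Ccl24 between 324 and 344 and Pf4 between 3781 and 4089 CPM.

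The share of cells with Ccl6 (91.0%) was 88.5% after thinning, 79.6% with the stricter gate, 92.8% under both gates and 84.2% when 2 UMIs were required. Thinning gave 70.3% for Ccl9, 38.1% for Ccl24 and 94.9% for Pf4, and requiring 2 UMIs gave 88.7%, 46.6% and 97.3%. The stricter gate gave 65.5% for Ccl24.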
